A study of Mus musculus with 19 samples.

Results

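Spleens of Rosa26-HGAL mice whose transgene was switched on by Sca1-Cre were compared at 2 stages, with tumours (tumour-bearing, 4 arrays) and before tumours (pre-tumour, 3 arrays). The 7 arrays were chosen by the stage and genotype in their titles, out of 19 arrays in the series. Each array held RNA of the total spleen of 1 mouse, labelled as a biological replicate, and 3 wild-type control spleens were set beside them. All 7 mice carried both Rosa26-HGAL and Sca1-Cre, so that the pre-tumour controls had the transgene and the Cre too, and the wild-type mice had neither. The other 9 arrays came from tumour-bearing spleens of Rosa26-HGAL mice with Aid-Cre (4 arrays) or Mb1-Cre (5 arrays). Every animal lived in a conventional facility with exposure to common pathogens, and the labels name no treatment. Age, strain and sex are not in the labels, and the part of age in the difference between stages was not tested.

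HGAL is the human form of Gcsam, an adaptor protein that B cells make in the germinal centre, where it takes part in signalling from the B cell receptor and in cell movement. Sca1 (Ly6a) is a surface protein of haematopoietic stem and progenitor cells, and Cre under its promoter acts early, so that blood lineages other than B cells can carry the switched-on transgene as well. The mouse spleen holds white pulp, with B cell follicles, T cell zones and germinal centres, and red pulp, where macrophages clear old red cells and where erythroid and myeloid precursors can divide in the adult.

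The values were log2 expression of 22180 genes. The median of an array was 5.23 to 5.40. Its 40th percentile was 4.72 to 4.90. Where a group averaged less than the upper end of that range, the gene is called near background, and its difference is not exact. The spread of a typical gene (median SD) was 0.162 in tumour, 0.124 in pre-tumour and 0.14 in wild-type spleens. Y-linked signal was present in 2 of 4 tumour, 1 of 3 pre-tumour and 3 of 3 wild-type arrays. Cd79a, which relays signals from surface immunoglobulin, stood at 12.15, 11.75, 9.72 and 11.53 in tumours 1 to 4, against 11.98, 12.23 and 12.18 in pre-tumour and 12.10, 12.38 and 12.03 in wild-type spleens, so the B cell marker was high in every array and lowest in tumour 3. Ly6a had no probe set of its own among those used.

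No gene passed limma's test between tumour and pre-tumour spleens with Benjamini-Hochberg adjustment over all 22180 genes and a threshold of 0.05, so the share called was 0.0%. The smallest adjusted p was 0.14. At an unadjusted p under 0.05 limma counted 536 genes higher (2.42%) and 649 lower (2.93%) in tumours, together 1185 or 5.34%. Every tumour array lay above every pre-tumour array for 854 genes (3.85%) and below every one for 1001 genes (4.51%). Of all genes, 10490 (47.3%) stood higher by any amount, and the median difference was -0.0096. A fit on the 7 arrays alone called 1 gene (0.00451%), H2-Ea. Gene groups are therefore described by their values in each array, and the words higher and lower mark the side of a difference that did not pass the test. In whole spleen, fewer cells of a type and less RNA per cell cannot be told apart.

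H2-Ea was the gene with the largest difference between the stages. It encodes the alpha chain of the class II molecule I-E, which presents peptides to CD4 T cells, and it is known to be silent in mouse strains of the H2-b haplotype such as C57BL/6, while strains with other haplotypes express it. H2-Ea stood at 4.11, 3.82, 4.13 and 3.89 in tumours 1 to 4, against 10.31, 10.65 and 10.45 in pre-tumours 1 to 3. Wild-type spleens had 4.22, 3.85 and 3.71, and the 4 Aid-Cre tumours lay between 3.72 and 4.29. All tumour and wild-type values were thus near background and all pre-tumour values far above it, with no value between. The difference was -6.48 ± 1.2 (SE), with a limma adjusted p of 0.412 in the fit over 19 arrays. With the 7 Sca1-Cre arrays alone it was -6.48 ± 0.12, with a limma adjusted p of 1.27e-06. The 5 Mb1-Cre tumours, which entered the shared estimate of the spread in the fit over 19 arrays, had 4.17, 10.79, 4.19, 8.76 and 4.01. H2-Ea was thus present in 2 of these 5 arrays as well, so it did not follow the stage in the series as a whole.

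The other class II chains did not show this pattern. H2-Eb1, the beta chain that pairs with H2-Ea, stood at 11.04, 11.17, 10.58 and 11.04 in tumours, against 11.12, 11.08 and 11.19 in pre-tumour spleens. H2-Aa, the alpha chain of I-A, stood at 12, 11.68, 10.88 and 11.50 in tumours, against 11.41, 11.70 and 11.51 in pre-tumour spleens. The groups overlapped for both chains, and tumour 3 was the lowest array for each. Of 11 measured genes of class II presentation, H2-Ea not counted among them, 10 stood lower by a median of -0.17, against a share of 52.7% lower over all genes, 0 of them at an unadjusted p under 0.05, and without tumour 3 the median was -0.048.

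Several other genes of chromosome 17, where H2-Ea lies, stood apart between the stages in the same way, and all but Sapcd1 and Dnah8 were picked after their values were seen. Msh5, a MutS homologue that acts in meiotic recombination, stood at 5.31, 5.47, 5.30 and 5.64 in tumours, against 6.52, 6.86 and 6.46 in pre-tumour and 5.44, 5.63 and 5.48 in wild-type spleens. Sapcd1, whose gene is next to Msh5 in the order of tested genes (GRCm38.p6), stood at 5.74, 5.92, 5.96 and 6.10 in tumours, against 6.98, 6.51 and 6.47 in pre-tumour spleens. Tumours lay below pre-tumours without overlap for both genes, by -1.18 ± 0.31 for Msh5 and -0.72 ± 0.16 for Sapcd1 (SE, limma adjusted p = 0.851 each). Mb1-Cre tumours 2 and 4, the ones with H2-Ea, also had the highest Msh5 of that group, at 7.01 and 6.42, against 5.27 to 5.66 in the other 3. Sapcd1 did not follow H2-Ea there, at 6.04, 6.32, 6.39, 6.12 and 6.11 in Mb1-Cre tumours 1 to 5.

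Dnah8, an axonemal dynein heavy chain, lay at position -103 from H2-Ea in that order, on its other side, and stood at 6.37, 6.70, 6.66 and 6.65 in tumours, against 8.96, 8.40 and 8.29 in pre-tumour spleens. The adjacent 1700097N02Rik, a gene with no described role, stood at 7.0, 7.15, 7.10 and 6.93 in tumours, against 8.34, 7.82 and 8.56 in pre-tumour spleens. Both genes separated the stages without overlap. In Mb1-Cre tumours 2 and 4 Dnah8 stood at 8.56 and 7.02 and 1700097N02Rik at 8.06 and 7.10, against 6.56 to 7.06 and 6.83 to 7.20 in the other 3, so that tumour 2 alone was high for both. Dnah8 differed by -1.96 ± 0.45 and 1700097N02Rik by -1.19 ± 0.25 (SE, limma adjusted p = 0.851 each). The gene with the smallest p of all, 9030025P20Rik, lay further along the same chromosome and stood at 5.27, 5.45, 5.37 and 5.68 in tumours, against 7.49, 6.85 and 6.33 in pre-tumour spleens, a difference of -1.45 ± 0.22 (SE, limma adjusted p = 0.14). Without pre-tumour 3 its difference was -1.73 and limma's adjusted p was 0.0135. With array weights and all arrays kept its difference was -1.54 and limma's adjusted p was 0.0398, so the call depended on the setting. In Mb1-Cre tumours 2 and 4 it stood at 5.90 and 5.31, the highest and the lowest of that group.

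**Figure D1:**
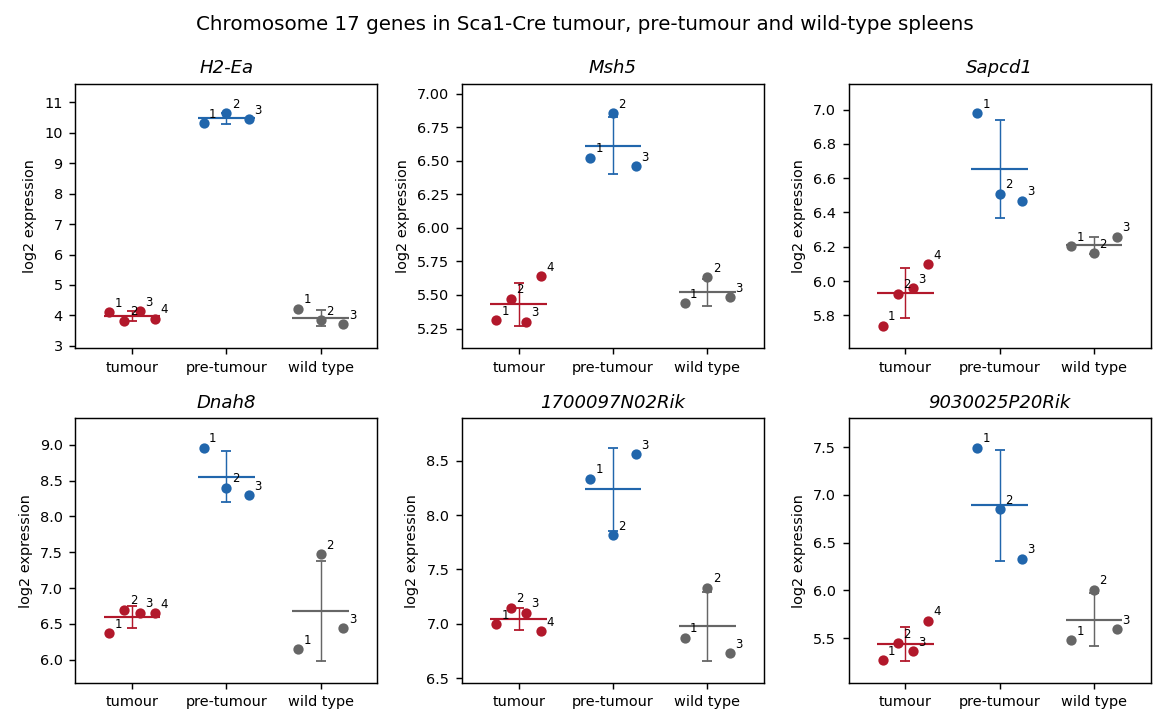
Log2 expression (vertical axis, a separate scale for each gene) of 6 genes of chromosome 17 in 4 tumour, 3 pre-tumour and 3 wild-type spleens. Each point is 1 array with its replicate number, the line is the group mean and the bar is 1 SD; for all 6 genes every tumour array lies below every pre-tumour array, from 3.82 to 4.13 against 10.31 to 10.65 for H2-Ea.

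Within 100 tested genes on either side of H2-Ea there were 201 genes. Of these 15 had an unadjusted p under 0.05 (7.46%), against 58 of 871 on the rest of chromosome 17 (6.66%) and 5.34% of all genes. At an unadjusted p under 0.01 there were 7 of 201 (3.48%), against 12 of 871 (1.38%) and 0.915% of all genes. Tumours lay below pre-tumours without overlap for 15 of the 201 (7.46%), against 4.51% of all genes, and above for 7 (3.48%), against 3.85%. Most genes around H2-Ea therefore did not stand apart. Those at an unadjusted p under 0.05 lay at positions -34 to 94 from H2-Ea. They were not spread evenly, as most had positive positions, many of them between 23 and 49. The window was placed after H2-Ea was seen, so these shares are a description. Strain is not in the labels, and its part in these values was not tested.

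**Figure D2:**
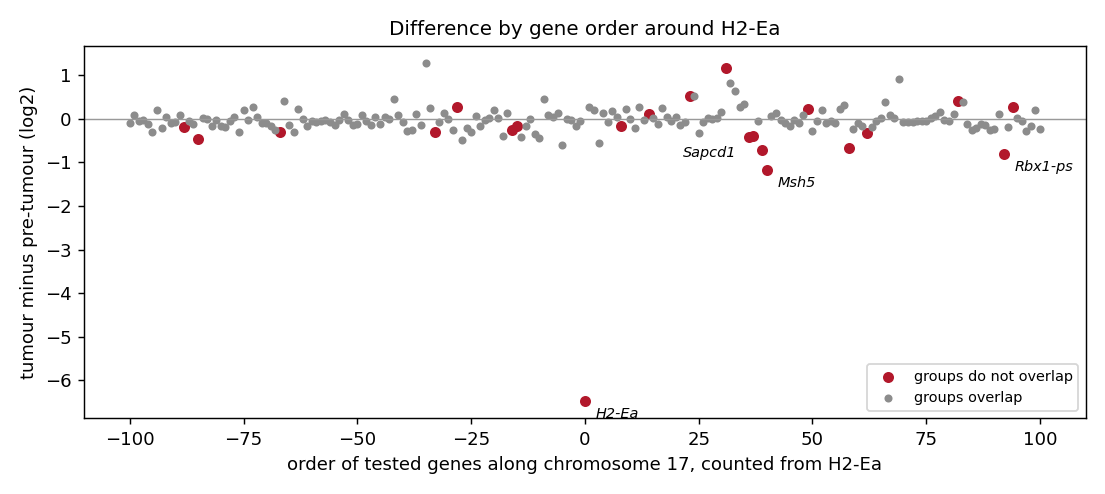
Difference in log2 expression, tumour minus pre-tumour (vertical axis), of the 201 genes within 100 tested genes of H2-Ea, by their order along chromosome 17 counted from H2-Ea (horizontal axis). Red points are genes whose tumour and pre-tumour arrays do not overlap; H2-Ea lies at -6.48, Msh5 at -1.18 and Rbx1-ps at -0.82, while most genes lie near 0.

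Genes of cell division stood higher in tumours than in pre-tumour spleens. Of 27 measured genes of mitosis, 27 were higher by a median of 1.40, against a share of 47.3% higher over all genes, and 3 had an unadjusted p under 0.05, against 2.42% of all genes. Of 28 measured genes of DNA replication, 28 were higher by a median of 0.90, and 5 had an unadjusted p under 0.05. Tumours lay above pre-tumours without overlap for 0 mitosis and 5 replication genes, against 3.85% of all genes. These genes are known to move together in dividing cells, so their counts are not independent observations.

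Tumour 1 was the exception among the tumours. Mki67, the proliferation antigen Ki-67, stood at 9.55, 11.83, 11.72 and 11.61 in tumours 1 to 4, against 8.07, 10.08 and 10.61 in pre-tumour and 11.41, 11.06 and 11.54 in wild-type spleens. Cdk1, the kinase that drives entry into mitosis, stood at 6.59, 8.61, 8.80 and 8.91 in tumours, against 5.26, 6.82 and 7.44 in pre-tumour and 8.35, 7.50 and 8.35 in wild-type spleens. For both genes, tumours 2 to 4 lay above every pre-tumour array while tumour 1 lay below pre-tumours 2 and 3. Mki67 differed by 1.59 ± 0.75 and Cdk1 by 1.72 ± 0.82 (SE, limma adjusted p = 0.851 each). The same order held for the whole mitosis list, whose median level relative to the pre-tumour mean was -0.14, 2.01, 1.90 and 2.01 in tumours 1 to 4, against -0.92, 0.26 and 0.59 in pre-tumours 1 to 3. Without tumour 1 the median difference of the list was 1.92 and 26 of 27 genes had an unadjusted p under 0.05, where 890 of all 22180 genes stood higher at that threshold. Without pre-tumour 1, the lowest array, the median was 0.922 and 0 genes did, as without tumour 2, 3 or 4. For the replication list 21 genes did without tumour 1 and 0 without tumour 3, tumour 4 or pre-tumour 1.

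Set beside wild type, the low group was the pre-tumour spleens. The mitosis list had levels of 1.56, 0.99 and 1.69 in wild-type spleens, within the range of tumours 1 to 4. Pre-tumour minus wild type was below 0 for 27 of 27 mitosis genes, with a median of -1.43, and for 28 of 28 replication genes, with a median of -0.62. Tumour minus wild type had a median of 0.093 for mitosis and 0.34 for replication. Each of these comparisons shares arrays with the other two, so the medians are given side by side only. No gene of either list was called in any of the 3 comparisons.

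Within this group 5 of 28 replication genes and 0 of 27 mitosis genes separated the stages without overlap. The replication list as a whole overlapped. Its level was 0.06, 0.91, 1.09 and 1.68 in tumours 1 to 4, against -0.29, 0.07 and 0.27 in pre-tumour spleens. Tumour 1 thus lay within the pre-tumour range. Pcna, the sliding clamp of DNA polymerases, stood at 10.10, 10.56, 10.48 and 10.88 in tumours, against 9.74, 9.82 and 10 in pre-tumour spleens. Prim1, the catalytic subunit of primase, stood at 7.25, 8.01, 8.10 and 8.68 in tumours, against 6.38, 6.89 and 7.20 in pre-tumour spleens. Every tumour lay above every pre-tumour for both, with tumour 1 close to the highest pre-tumour. The differences were 0.65 ± 0.29 for Pcna and 1.19 ± 0.54 for Prim1. Mcm6, a subunit of the replicative helicase, differed by 0.98 ± 0.42, and Prim2, the other primase subunit, by 0.78 ± 0.35, each with overlap between the groups. Among genes named for the size of their difference, H1f5 (a linker histone) differed by 2.25 ± 0.95, Shcbp1 (a protein of the midbody) by 1.86 ± 0.87, Rrm2 (a subunit of ribonucleotide reductase) by 1.85 ± 0.86 and Bub1 (a spindle checkpoint kinase) by 1.78 ± 0.82 (SE, limma adjusted p = 0.851 each). Tumour 1 was the lowest tumour for all 4 of these, with H1f5 at 7.34, against 9.96, 9.89 and 9.72 in tumours 2 to 4 and 5.11, 7.37 and 8.46 in pre-tumour spleens.

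The promoters of 3 of these mitosis genes are shown because such genes are known to share 2 short elements, the cell cycle homology region (TTTGAA) and the CCAAT box, which the DREAM and NF-Y complexes bind. The windows run from 250 bases before to 50 after the start of the gene, on the strand of the gene, in RefSeq (GRCm38.p6), and capitals mark both elements on either strand. Cdk1 lies at chr10:69352863-69353162 (minus strand), Ccnb2, a mitotic cyclin, at chr9:70421505-70421804 (minus strand) and Plk1, a mitotic kinase, at chr7:122159185-122159484 (plus strand).
Cdk1: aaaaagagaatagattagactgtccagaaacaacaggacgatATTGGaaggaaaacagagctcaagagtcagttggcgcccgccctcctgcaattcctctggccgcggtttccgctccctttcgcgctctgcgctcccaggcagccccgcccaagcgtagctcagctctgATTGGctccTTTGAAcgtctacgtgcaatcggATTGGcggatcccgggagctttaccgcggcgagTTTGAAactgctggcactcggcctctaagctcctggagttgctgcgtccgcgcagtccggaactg
Ccnb2: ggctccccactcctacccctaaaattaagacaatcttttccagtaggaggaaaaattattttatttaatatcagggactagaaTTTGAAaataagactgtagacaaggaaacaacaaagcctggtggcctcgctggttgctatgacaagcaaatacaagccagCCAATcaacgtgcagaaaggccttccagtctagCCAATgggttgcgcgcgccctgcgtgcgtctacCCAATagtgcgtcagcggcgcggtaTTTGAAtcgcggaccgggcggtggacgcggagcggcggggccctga
Plk1: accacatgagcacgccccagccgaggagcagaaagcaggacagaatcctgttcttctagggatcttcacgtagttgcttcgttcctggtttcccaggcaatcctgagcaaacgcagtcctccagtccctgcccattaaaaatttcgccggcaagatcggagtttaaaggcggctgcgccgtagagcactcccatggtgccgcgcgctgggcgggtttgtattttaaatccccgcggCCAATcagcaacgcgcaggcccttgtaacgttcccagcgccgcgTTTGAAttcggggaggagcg
TTTGAA was present in 17 of the 23 mitosis promoters in the table (73.9%), against 18.1% of all 27025 promoters. CCAAT was present in 19 of 23 (82.6%), against 37.9%, and both together in 16 of 23 (69.6%), against 7.12%. Ccnb2 stood at 7.34, 9.22, 9.43 and 9.13 in tumours, against 6.11, 7.49 and 8.23 in pre-tumour spleens, and Plk1 at 6.79, 8.97, 8.89 and 8.89, against 5.98, 7.07 and 7.58. As for Mki67, tumours 2 to 4 lay above all pre-tumours for both genes and tumour 1 among them.

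Erythroid and neutrophil genes varied widely among the spleens, in part along with cell division. Of 19 measured genes of erythroid cells and haem synthesis, 19 stood higher in tumours by a median of 1.24, with 0 at an unadjusted p under 0.05 and 0 without overlap. The list level was 0.03, 2.51, 1.87 and 0.24 in tumours 1 to 4, against -1.23, 0.29 and 1.03 in pre-tumour and 1.97, 1.56 and 2.29 in wild-type spleens. Tumours 2 and 3 were thus within or above the range of wild type, while tumours 1 and 4 lay within the pre-tumour range. Tumour 4 had high mitosis genes with a low erythroid level, so the lists did not move together in every array. Without pre-tumour 1 the erythroid median was 0.539 and without tumour 2 it was 0.823.

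Trim10, a protein of erythroid maturation, stood at 8.81, 10.55, 10.17 and 8.22 in tumours, against 6.70, 8.23 and 8.6 in pre-tumour spleens, a difference of 1.59 ± 0.84. Slc4a1, the anion exchanger band 3 of the red cell membrane, stood at 10.74, 12.21, 11.77 and 10.49 in tumours, against 9.0, 10.6 and 11.26 in pre-tumour spleens, a difference of 1.02 ± 0.66 (SE, limma adjusted p = 0.851 for both). The groups overlapped for both genes. Epb42, the membrane skeleton protein 4.2, differed by 1.27 ± 0.84, and Tspo2, a porphyrin and cholesterol transport protein of erythroblasts, by 1.41 ± 0.94. Pre-tumour minus wild type was below 0 for 19 of 19 erythroid genes, with a median of -2.04, of which 4 had an unadjusted p under 0.05, against 2.4% of all genes.

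**Figure D3:**
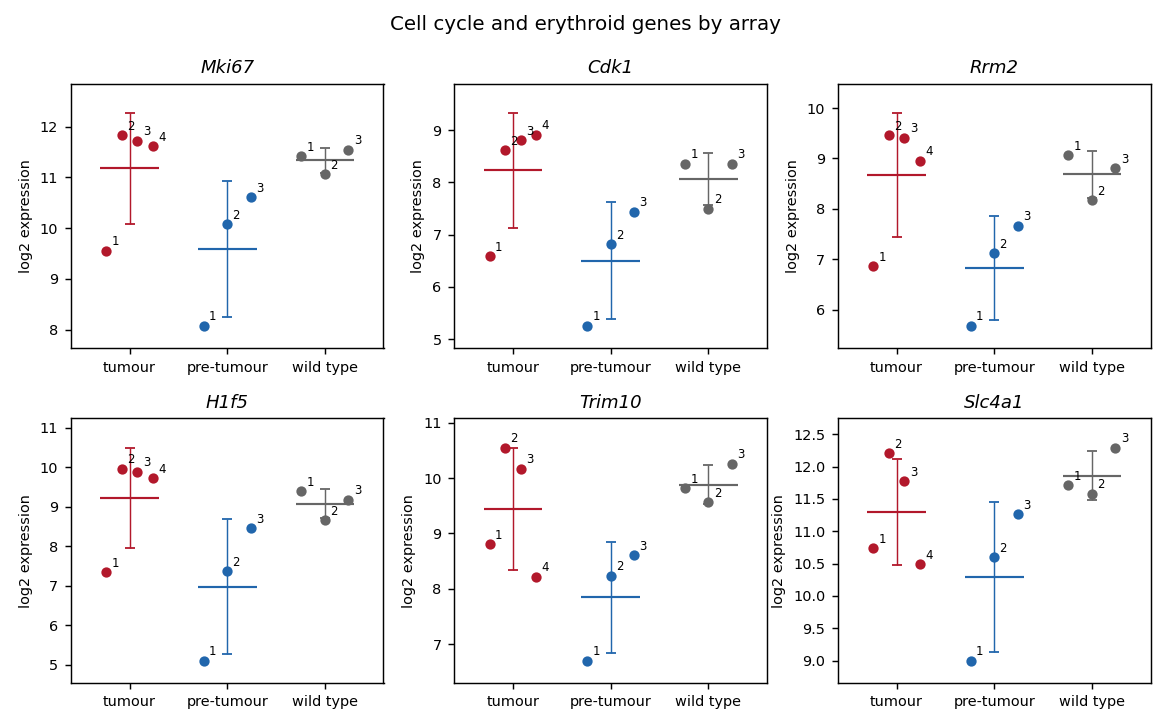
Log2 expression (vertical axis, a separate scale for each gene) of the cell division genes Mki67, Cdk1, Rrm2 and H1f5 and the erythroid genes Trim10 and Slc4a1 in tumour, pre-tumour and wild-type spleens. Points are arrays with their replicate number, lines are means and bars are 1 SD; for the 4 division genes tumour 1 sits apart from tumours 2 to 4 (Mki67 9.55 against 11.61 to 11.83), and pre-tumour 1 is the lowest array in all 6 panels.

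Of 20 measured neutrophil genes, 19 stood higher by a median of 0.78, 0 of them at an unadjusted p under 0.05. The list level was -0.17, 1.44, 1.45 and 0.23 in tumours 1 to 4, against -0.73, 0.67 and -0.03 in pre-tumour spleens. Ctsg, the granule protease cathepsin G, stood at 5.18, 8.47, 8.18 and 5.99 in tumours, against 4.65, 5.81 and 5.58 in pre-tumour spleens, so that tumours 2 and 3 alone lay well above the rest. Chil3, a chitinase-like protein of myeloid cells, differed by 1.80 ± 1.16 and Ly6g, the surface marker of neutrophils, by 1.44 ± 1.09, both with overlap. Leaving out tumour 2 gave a list median of 0.495, tumour 3 0.477 and pre-tumour 1 0.415. Mcpt8, a basophil protease, stood at 5.30, 6.91, 9.27 and 6.21 in tumours, against 4.31, 5.92 and 5.23 in pre-tumour spleens, with tumour 3 the highest.

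Genes of protein folding and secretion stood higher in tumours by small amounts. Of the 8 genes named as higher by smallest p without overlap, 2 act there. Sec24d, a cargo-binding part of the COPII coat of vesicles that leave the endoplasmic reticulum, stood at 6.82, 7.37, 7.55 and 7.64 in tumours, against 6.60, 6.58 and 6.56 in pre-tumour spleens, a difference of 0.77 ± 0.17. Hspa13, a microsomal member of the Hsp70 family, stood at 6.53, 6.65, 7.03 and 6.86 in tumours, against 6.06, 6.27 and 6.18 in pre-tumour spleens, a difference of 0.59 ± 0.14 (SE, limma adjusted p = 0.851 for both). The groups did not overlap for either gene, by the way they were chosen.

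The list of the unfolded protein response was described after its values were seen, and 18 of its 18 measured genes stood higher by a median of 0.28. Of these 6 had an unadjusted p under 0.05, against 2.42% of all genes, and 3 lay above all pre-tumours, against 3.85%. Without tumour 3 or pre-tumour 3, 2 genes had an unadjusted p under 0.05. Edem1, which marks misfolded glycoproteins for disposal, stood at 9.83, 9.65, 10.38 and 9.99 in tumours, against 9.60, 9.49 and 9.54 in pre-tumour spleens. Sel1l, a subunit of the ligase that extracts misfolded proteins, stood at 8.70, 8.94, 9.53 and 8.83 in tumours, against 8.62, 8.68 and 8.59. Neither gene overlapped between the groups, and the distance from the lowest tumour to the highest pre-tumour was small. The list level was -0.03, 0.25, 0.57 and 0.44 in tumours 1 to 4, against -0.09, 0.13 and -0.04 in pre-tumour spleens, so that tumour 1 again lay among the pre-tumours. Plasma cells are rich in these transcripts. The plasma cell list, also described after its values were seen, holds Edem1 and Creld2 too, so the 2 lists are not separate observations. Of its 15 measured genes 10 stood higher by a median of 0.11. At an unadjusted p under 0.05 there were 4, Edem1 and Creld2 among them, against 2.42% of all genes. That count was 0 without tumour 3 and 1 without pre-tumour 1 or 2, and the median was 0.0702 without tumour 1 and 0.177 without tumour 4. Sdc1, the plasma cell marker CD138, had a difference of 0.21 with an unadjusted p of 0.144.

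Promoters of 2 members of the response are shown because they hold its element, CCAAT and CCACG with 9 free bases between them, to which NF-Y and ATF6 bind and which contains a CCAAT box. Hspa5, the chaperone BiP, lies at chr2:34771840-34772139 (plus strand) and Creld2, an endoplasmic reticulum protein with a disulfide isomerase function, at chr15:88819396-88819695 (plus strand), in RefSeq (GRCm38.p6). Capitals mark the element on either strand.
Hspa5: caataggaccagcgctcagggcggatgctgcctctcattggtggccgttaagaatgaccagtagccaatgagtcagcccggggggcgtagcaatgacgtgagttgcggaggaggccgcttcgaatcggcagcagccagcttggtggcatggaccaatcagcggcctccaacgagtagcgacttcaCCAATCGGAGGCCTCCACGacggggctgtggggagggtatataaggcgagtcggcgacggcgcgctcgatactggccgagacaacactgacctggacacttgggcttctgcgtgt
Creld2: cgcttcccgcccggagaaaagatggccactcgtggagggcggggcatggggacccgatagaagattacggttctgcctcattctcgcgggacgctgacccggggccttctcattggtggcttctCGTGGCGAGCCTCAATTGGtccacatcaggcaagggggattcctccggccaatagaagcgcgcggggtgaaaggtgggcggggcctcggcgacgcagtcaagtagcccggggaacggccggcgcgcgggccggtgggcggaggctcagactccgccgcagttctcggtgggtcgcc
The element was present in 7 of the 15 promoters of the list that are in the table (46.7%), against 0.13% of all promoters. Hspa5 stood at 9.11, 9.26, 9.54 and 9.69 in tumours, against 9.10, 9.47 and 8.84 in pre-tumour spleens, with overlap. Creld2 stood at 8.40, 9.18, 9.84 and 9.09 in tumours, against 8.39, 8.62 and 8.47 in pre-tumour spleens, a difference of 0.63 ± 0.27 with tumour 1 within the pre-tumour range.

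Genes of energy metabolism stood higher as well. Of 22 measured genes of oxidative phosphorylation, 22 were higher by a median of 0.31, with 6 at an unadjusted p under 0.05, against 2.42% of all genes, and 9 above all pre-tumours, against 3.85%. Ndufa4, a subunit of the respiratory chain, stood at 9.88, 9.87, 10.06 and 10.39 in tumours, against 9.49, 9.46 and 9.65 in pre-tumour spleens. Uqcrq, a subunit of complex III, stood at 6.78, 6.85, 7.23 and 7.23 in tumours, against 6.38, 6.47 and 6.58. Both genes separated the stages, here with tumour 1 on the side of the tumours, by 0.52 ± 0.19 for Ndufa4 and 0.55 ± 0.20 for Uqcrq. Ndufa2 (complex I) differed by 0.33 ± 0.13 and Atp5g1 (ATP synthase) by 0.28 ± 0.12, both with overlap. Without tumour 4, pre-tumour 1 or pre-tumour 2, 2 genes of the list had an unadjusted p under 0.05, and without tumour 4 its median was 0.223.

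Glycolysis, a list described after its values were seen, had 12 of 14 measured genes higher by a median of 0.30, 3 of them at an unadjusted p under 0.05, against 2.42% of all genes. That count was 1 without tumour 3, tumour 4, pre-tumour 1 or pre-tumour 2. Hk2, the hexokinase isoform of many dividing cells, stood at 6.81, 7.18, 7.89 and 7.47 in tumours, against 6.60, 6.49 and 6.60 in pre-tumour spleens, a difference of 0.77 ± 0.24 with no overlap. Tpi1, triose phosphate isomerase, stood at 8.35, 8.70, 9.12 and 10.29 in tumours, against 8.05, 8.23 and 8.57, with tumour 4 the highest. Other genes named as higher by smallest p were Psmb5 (a catalytic subunit of the proteasome), with 0.63 ± 0.16, and Stard4 (a sterol carrier), with 0.42 ± 0.11. For Stard4 the low group was the pre-tumour spleens. Its pre-tumour minus wild type was -0.61 and its tumour minus wild type -0.19. Spop (an adaptor of a Cul3 ubiquitin ligase) had 0.31 ± 0.08, and Hoxa4 (a homeobox factor) had 0.30 ± 0.07. Oxct2a (a testis form of the ketone body transferase) had 0.62 ± 0.16 and Rnls (the flavoprotein renalase) had 0.41 ± 0.11, with both group means near background (SE, limma adjusted p = 0.851 for all 6).

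B cell genes stood lower in tumours, with tumour 3 far below the rest. Of 19 measured B cell identity genes, 18 were lower by a median of -0.68, 0 at an unadjusted p under 0.05, and 3 lay below all pre-tumours, against 4.51% of all genes. The list level was 0.02, -0.30, -1.82 and -0.45 in tumours 1 to 4, against -0.15, 0.17 and -0.02 in pre-tumour spleens. Tumour 1 thus lay at the pre-tumour level. Without tumour 3 the median was -0.255 and 15 genes stood lower. Cd37, a tetraspanin of mature B cells, stood at 10.85, 10.46, 9.51 and 10.16 in tumours, against 10.89, 10.93 and 10.95 in pre-tumour spleens. Bank1, a scaffold of B cell receptor signalling, stood at 11.45, 11.36, 9.42 and 10.66 in tumours, against 11.57, 11.87 and 11.55. Tumours lay below pre-tumours without overlap for both, by -0.68 ± 0.39 for Cd37 and -0.94 ± 0.70 for Bank1 (SE, limma adjusted p = 0.851 and 0.856).

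Of 13 measured genes of marginal zone and follicular B cells, 11 were lower by a median of -0.40, and of 17 genes of B cell receptor signalling, 15 by a median of -0.29, 0 of either at an unadjusted p under 0.05. Without tumour 1 the marginal zone and follicular median was -0.659, with 3 genes lower at that threshold, and without tumour 3 the receptor signalling median was -0.118. Notch2, the receptor that marginal zone B cells need, stood at 9.95, 9.93, 9.13 and 9.14 in tumours, against 9.98, 10.29 and 9.99 in pre-tumour spleens. Cd55, the complement decay-accelerating factor, stood at 10.44, 9.66, 7.90 and 8.51 in tumours, against 9.99, 10.36 and 10.10. Tumours 3 and 4 were the low arrays for both genes. Ccr7, the chemokine receptor that guides cells to the T zone, differed by -0.94 ± 0.70 and Cxcr5, which guides cells to follicles, by -0.82 ± 0.57. Of 29 antigen receptor segments, 27 stood lower, 0 at an unadjusted p under 0.05.

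Germinal centre genes stood out in a single tumour. Of 15 measured genes, 12 were higher by a median of 0.61 and 3 had an unadjusted p under 0.05, against 2.42% of all genes, but the list level was 0.09, 0.04, 0.12 and 1.89 in tumours 1 to 4, against -0.03, 0.00 and -0.03 in pre-tumour spleens. Without tumour 4 the median was 0.0991 and 1 gene had an unadjusted p under 0.05. That count was also 1 without pre-tumour 1 or 3. Gcsam, the mouse counterpart of the transgene, stood at 5.74, 5.82, 6.38 and 10.41 in tumours, against 5.80, 5.71 and 5.98 in pre-tumour and 6.01, 5.92 and 5.36 in wild-type spleens. Gcsam was thus at the same level in tumours 1 and 2 as in spleens without tumours, and its difference was 1.25 ± 0.76 (SE, limma adjusted p = 0.851). Whether the probe set of Gcsam also takes up the human transgene was not tested. Mybl1, a transcription factor of germinal centre B cells, stood at 5.89, 6.32, 6.24 and 10.60 in tumours, against 5.32, 5.84 and 5.58 in pre-tumour spleens. Rgs13, a brake on chemokine signalling in these cells, stood at 4.56, 4.14, 3.87 and 10.38, against 3.97, 3.98 and 5.00. Fas, the death receptor that germinal centre B cells carry, was higher in tumours 2 to 4 than in every pre-tumour, at 7.84, 8.25, 8.31 and 9.41 in tumours, against 7.23, 7.86 and 7.05 in pre-tumour spleens, with a difference of 1.07 ± 0.32 (SE, limma adjusted p = 0.851).

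T cell genes had a smaller median difference between the stages than from wild type. Of 18 measured T cell identity genes, 14 were lower in tumours by a median of -0.20, 0 at an unadjusted p under 0.05. The median was -0.047 without tumour 2, -0.109 without tumour 4 and -0.0811 without pre-tumour 1, against -0.386 without tumour 1 and -0.348 without tumour 3. The list level was 0.18, -0.77, 0.09 and -0.51 in tumours, against 0.17, -0.145 and -0.01 in pre-tumour and -0.79, -0.24 and -0.99 in wild-type spleens. Pre-tumour minus wild type was above 0 for 18 of 18 genes, with a median of 0.63, against 52.6% of all genes, and 1 had an unadjusted p under 0.05, against 3.07%. Tumour minus wild type was above 0 for 16 of 18, with a median of 0.46. Cd8b1, the beta chain of CD8, differed between tumour and pre-tumour by -0.85 ± 0.62, Cd8a by -0.72 ± 0.66 and Lef1, a factor of naive T cells, by -0.65 ± 0.69. Lef1 was high in tumour 1 alone among the tumours, at 9.94, against 8.09, 7.94 and 8.03 in tumours 2 to 4, and at 9.73, 8.28 and 9.44 in pre-tumour spleens.

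The list of follicular helper and checkpoint genes, described after its values were seen, had 13 of 18 genes higher in tumours by a median of 0.21. Of these 0 had an unadjusted p under 0.05. Tumour minus wild type had a median of 1.12. Pre-tumour minus wild type was already above 0 for 17 of 18 genes, against 52.6% of all genes, with a median of 0.48. For 3 of them the unadjusted p was under 0.05, against 3.07% of all genes. Lag3, an inhibitory receptor of activated T cells, stood at 6.30, 6.94, 9.85 and 8.55 in tumours, against 6.28, 7.95 and 6.07 in pre-tumour and 6.78, 6.07 and 6.32 in wild-type spleens. Pdcd1, the receptor PD-1, stood at 6.85, 7.37, 9.63 and 9.05 in tumours, against 6.83, 8.44 and 6.62 in pre-tumour spleens. Tumours 3 and 4 had the highest values of both, and pre-tumour 2 was above tumours 1 and 2. Without tumour 3 the list median was 0.0415, and without pre-tumour 2 it was 0.462. Il21, the cytokine of follicular helper T cells, was highest in tumour 4, at 8.01, against 5.31, 5.61 and 6.05 in tumours 1 to 3 and 4.92, 6.02 and 4.79 in pre-tumour spleens.

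**Figure D4:**
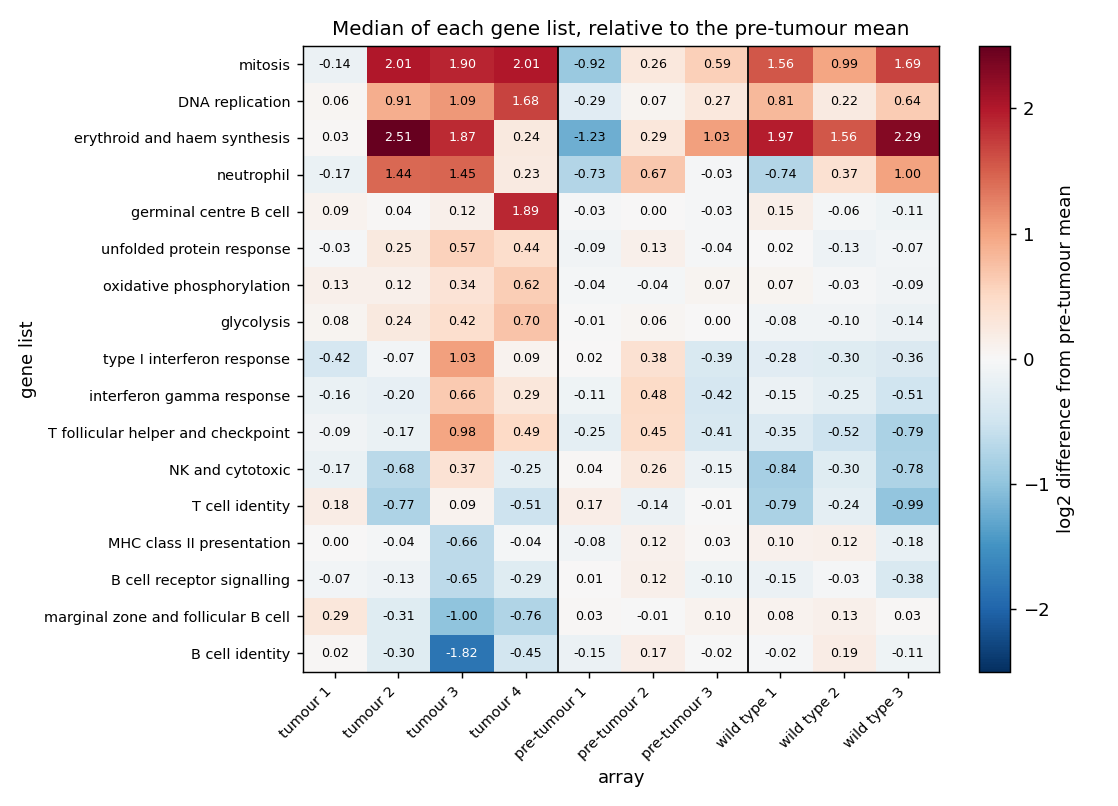
Level of 17 gene lists (rows) in 4 tumour, 3 pre-tumour and 3 wild-type spleens (columns). Each cell is the median over the genes of a list of the log2 difference from the pre-tumour mean, with red above and blue below; tumour 1 is close to the pre-tumours in most rows, tumour 3 has the lowest B cell identity level (-1.82) and tumour 4 the highest germinal centre level (1.89).

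The 4 tumours differed from each other in how many genes set them apart. Genes in which 1 array lay at least 1 on the log2 scale above all other 6 Sca1-Cre arrays numbered 11 for tumour 1, 12 for tumour 2, 62 for tumour 3 and 147 for tumour 4. Those at least 1 below numbered 1, 0, 62 and 10. For pre-tumours 1 to 3 the counts above were 4, 1 and 6 and those below 40, 1 and 1. At a gap of 2 or more, tumour 3 had 8 above and 6 below and tumour 4 had 25 above and 0 below. The genes named next were chosen by that gap, so their values are a description with no test.

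In tumour 4, Kcnma1, a calcium-activated potassium channel, stood at 13.42, against 7.80, 4.33 and 5.01 in tumours 1 to 3 and 4.73, 4.85 and 4.35 in pre-tumour spleens. Rgs13 had the next largest gap. Emp2, an epithelial membrane protein, stood at 9.58 in tumour 4, against 4.22 to 4.39 in the other tumours and 4.39 to 4.47 in pre-tumour spleens. Mybl1, Anxa10 (an annexin, 7.94), Gcsam and Lmo7 (a scaffold with a LIM domain, 10.09) followed by size of the gap. Tumour 4 was also the lowest of the 7 arrays for Vcam1 and Mrc1, which red pulp macrophages express, at 7.54 and 6.0, against 8.92 to 9.31 and 7.34 to 7.95 in the other 6. Wild-type spleens had 7.35, 8.56 and 9.17 for Vcam1 and 6.28, 7.37 and 7.52 for Mrc1, so wild type 1 was low as well. Il5ra, the receptor for interleukin 5 of eosinophils and some B cells, stood at 8.57, 5.90, 5.88 and 4.61 in tumours 1 to 4, against 8.75, 7.20 and 9.10 in pre-tumour spleens, a difference of -2.11 ± 0.79 (SE, limma adjusted p = 0.851). Hepacam2, an immunoglobulin superfamily protein, had a similar order, at 8.07, 6.66, 5.30 and 4.60 in tumours, against 8.11, 6.95 and 8.61 in pre-tumour spleens. Tumour 1 lay with the pre-tumours for both genes.

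Tumour 3 was the highest of the 7 arrays for 14 of 20 type I interferon, 14 of 20 interferon gamma and 8 of 18 cytotoxic genes. It was the lowest for 17 of 19 B cell identity genes. The interferon and cytotoxic lists were described after their values were seen. Cxcl9, a chemokine induced by interferon gamma, stood at 6.67, 6.59, 10.40 and 7.98 in tumours 1 to 4, against 6.59, 7.99 and 6.43 in pre-tumour spleens. Oas1g, an oligoadenylate synthetase induced by interferon, stood at 8.52 in tumour 3, against 3.55 to 5.91 in the other 6 arrays. Gzmb, the cytotoxic protease granzyme B, stood at 6.85, 5.58, 9.79 and 7.39 in tumours, against 5.72, 7.53 and 5.58 in pre-tumour spleens. The level of the type I interferon list was -0.42, -0.07, 1.03 and 0.09 in tumours 1 to 4, against 0.02, 0.38 and -0.39 in pre-tumour spleens. Its median difference was 0.13 and, without tumour 3, -0.189, or -0.037 without pre-tumour 3. Cr2, the complement receptor of mature B cells, stood at 7.51 in tumour 3, against 10.18 to 11.17 in the other 6 arrays, and the B lineage factors Ebf1 and Pax5 at 7.37 and 7.26, against 9.73 to 10.65 and 9.09 to 9.64.

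**Figure D5:**
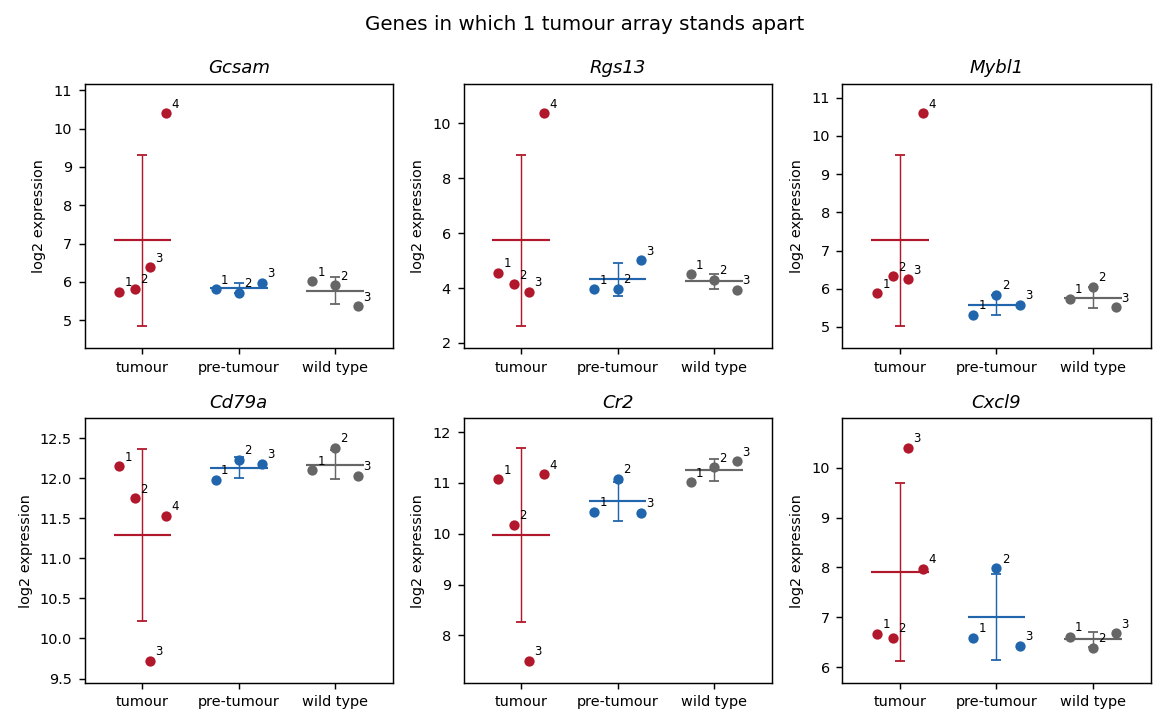
Log2 expression (vertical axis, a separate scale for each gene) of 6 genes in which 1 tumour stands apart, in tumour, pre-tumour and wild-type spleens. Points are arrays with their replicate number, lines are means and bars are 1 SD; tumour 4 is alone at 10.41 for Gcsam, 10.38 for Rgs13 and 10.60 for Mybl1, and tumour 3 is the lowest for Cd79a (9.72) and Cr2 (7.51) and the highest for Cxcl9 (10.40).

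Tumour 1 was the closest of the tumours to the pre-tumour spleens in the mitosis, B cell identity and unfolded protein response lists, and stood apart in early response genes. Jun and Junb, subunits of the transcription factor AP-1, stood at 10.23 and 10.04 in tumour 1, against 8.22 to 8.98 and 8.81 to 8.98 in the other 6 arrays. Trat1, an adaptor of the T cell receptor, stood at 8.75 in tumour 1, against 5.69 to 6.93. Tumour 2 had the highest Fzd6, a Wnt receptor, at 7.61, against 4.38 to 5.78 in the other 6. It also had the highest Adgre1, a macrophage marker, at 9.14, against 6.92 to 7.90. The macrophage and red pulp list, which includes Adgre1, was not high there. Its level was -0.05, -0.09, 0.53 and -0.64 in tumours 1 to 4, against 0.02, -0.32 and 0.28 in pre-tumour spleens. Tumour 2 had the lowest Cd3g, a chain of the T cell receptor complex, at 10, against 10.70 to 11.48.

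Small nucleolar RNAs, which guide chemical modification of ribosomal and spliceosomal RNA, stood higher in tumours than in pre-tumour spleens. Of 87 measured, 76 were higher by a median of 0.44, 24 at an unadjusted p under 0.05 and higher, against 2.42% of all genes, and 26 lay above all pre-tumours (29.9%), against 3.85%. This kind of gene was picked after its values were seen. Snord118, the U8 RNA of ribosome maturation, stood at 6.98, 6.09, 8.30 and 6.78 in tumours, against 5.33, 5.48 and 5.38 in pre-tumour and 7.23, 6.40 and 6.68 in wild-type spleens. Snord15a stood at 10.39, 10.55, 10.56 and 10.67 in tumours, against 9.57, 8.77 and 9.75 in pre-tumour and 11.15, 10.32 and 10.22 in wild-type spleens. Pre-tumours lay below tumours and wild type for both. The Mb1-Cre tumours had levels similar to the pre-tumours, at 5.46 ± 0.53 for Snord118 and 9.21 ± 0.36 for Snord15a (SD, n = 5). The Aid-Cre tumours had 5.82 ± 0.23 and 9.98 ± 0.39 (SD, n = 4), on average also below Sca1-Cre tumours and wild type. Sca1-Cre tumours exceeded pre-tumours by 1.64 ± 0.39 for Snord118 and 1.18 ± 0.28 for Snord15a. Snord53 went the other way, by -1.44 ± 0.60 (SE, limma adjusted p = 0.851 for all 3). Over all 87, tumour minus wild type had a median of 0.039 and pre-tumour minus wild type -0.51. Rny1, a Y RNA bound by the Ro protein, differed by 1.59 ± 0.46 between the stages. These RNAs are short, and the part of RNA quality or size in their values was not tested.

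Several splicing factor genes stood lower in tumours, a list described after its values were seen. Of 28 measured, 23 were lower by a median of -0.12, with 3 lower and 1 higher at an unadjusted p under 0.05, against 2.93% and 2.42% of all genes, and 5 lay below all pre-tumours, against 4.51%. The median was -0.0479 without tumour 3, -0.0546 without pre-tumour 1 and -0.0757 without pre-tumour 2, against -0.216 without tumour 4 and -0.195 without pre-tumour 3. Leng8, an RNA-binding protein of mRNA export, stood at 8.89, 8.98, 8.76 and 8.89 in tumours, against 9.54, 9.15 and 9.35 in pre-tumour and 9.44, 9.86 and 9.77 in wild-type spleens. U2af1l4, a small subunit of the factor that recognises the 3' splice site, stood at 7.31, 7.27, 7.25 and 7.26 in tumours, against 7.49, 7.37 and 7.55 in pre-tumour and 7.79, 7.77 and 7.76 in wild-type spleens. For both genes the pre-tumour mean lay between the others. Tumour minus wild type was called by limma for Leng8, at -0.81 (adjusted p = 0.042), and U2af1l4, at -0.50 (adjusted p = 0.039), while tumour minus pre-tumour was -0.47 and -0.20 and not called. No gene was called against wild type without Mb1-Cre tumour 2 and wild type 2, with the replicate number as a block or with a fold threshold, so both calls were lost there. Both were also lost with only the compared groups, only Sca1-Cre and wild-type arrays, the sex covariate or a variance trend, and without tumour 2, 3 or 4 or wild type 2 or 3.

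The remaining genes named as lower by smallest p without overlap were Npff, the precursor of neuropeptide FF, with -0.51 ± 0.11, Krt34, a hair keratin, with -0.45 ± 0.10, and Frg2f1, near background in tumours, with -0.46 ± 0.11. Tmem132a, a transmembrane protein, had -0.36 ± 0.09 and Ostn, the bone and muscle peptide osteocrin, -0.32 ± 0.08 with both means near background (SE, limma adjusted p = 0.851 for all 5). Mid1, a ligase bound to microtubules, stood at 7.07, 8.95, 7.53 and 7.54 in tumours, against 10.42, 9.12 and 8.10 in pre-tumour spleens, with overlap. Mid1 lies at the edge of the pseudoautosomal region. With a sex covariate in the fit no gene was called lower, and beyond that the part of sex in the values of Mid1 was not tested.

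Genes of the exocrine pancreas, which adjoins the spleen, were mostly dim in both stages. Of 15 measured genes, 15 stood lower in tumours by a median of -0.30, against 52.7% lower of all genes, 0 at an unadjusted p under 0.05, with 7 below all pre-tumours, against 4.51%. The list level was -0.22, -0.30, -0.27 and -0.46 in tumours, against 0.16, 0.00 and -0.12 in pre-tumour spleens. Cpb1, a pancreatic carboxypeptidase, stood at 3.49, 3.37, 3.43 and 3.30 in tumours, against 4.96, 4.51 and 3.86 in pre-tumour and 3.52, 6.09 and 3.48 in wild-type spleens. Its values were near background in all tumours and highest in wild type 2. Of 14 measured genes of fat and muscle, 10 stood lower by a median of -0.033, with 1 higher at an unadjusted p under 0.05 (Cidec, a lipid droplet protein, 0.25 ± 0.10).

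Beside these values, limma called 1 gene between pre-tumour and wild-type spleens (0.00451%) and 9 between tumour and wild-type spleens (0.0406%). At an unadjusted p under 0.05, tumours had 6.12% of genes above and 5.25% below wild type. The gene called in pre-tumour spleens was Mir466h, a microRNA gene of a repeated family, which stood at 5.69, 5.79, 5.54 and 5.55 in tumours, against 5.96, 5.80 and 5.53 in pre-tumour and 7.81, 7.77 and 7.72 in wild-type spleens. Both Sca1-Cre groups lay about equally far below wild type, at -2.12 for tumours (limma adjusted p = 0.00431) and -2.0 for pre-tumours (limma adjusted p = 0.0443). The pre-tumour call was lost under quantile normalization, cyclic loess, the sex covariate and the fold threshold, without Mb1-Cre tumour 2 and wild type 2, and when any 1 of the compared arrays was left out. The tumour call was lost with the replicate number as a block, with the fold threshold and without Mb1-Cre tumour 2 and wild type 2. The probe set measures RNA of this locus and near-identical copies may share its signal.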

How the data were processed

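Total RNA from whole spleens was extracted with Trizol and biotinylated for Affymetrix arrays. RMA and oligo are the tools in the submitters' processing notes, with neither a version nor a genome build. The authors deposited log2 expression of 41345 probe sets, used here without change, with 0 sample columns left unused. RMA sets all arrays to 1 distribution, so shifts common to all genes are not seen. Probe sets with exactly 1 gene symbol (23521) were used, the one with the highest mean over the 19 arrays standing for a gene, which left 22180 genes. Another 1814 had several symbols and 16010 none.

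Groups came from the titles. A fit of group means over all 19 arrays (limma 3.58.1, R 4.3.3, 14 residual and 2.46 prior degrees of freedom) gave the comparisons, two-sided, with Benjamini-Hochberg adjustment over all genes and a threshold of 0.05. P-values measure the spread between arrays of separate animals. A list's level in an array is the median over its genes of the difference from the pre-tumour mean. On simulated data with this design and 22180 genes, limma recovered 42% of genes changed by 0.5, 68% at 1, 94% at 1.5 and 100% at 2. At each size 50 genes were changed, with noise independent between genes. The changed genes were drawn at random, and the noise of a gene was the same in every group. These shares do not hold for genes that vary widely among the tumours, such as H1f5, at 2.25 ± 0.95 (SE) and not called.

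Genes were named by rule: in each direction the 8 with the smallest p among genes without overlap (no predicted, small RNA, receptor segment, olfactory or sex-linked genes), the 5 with the largest difference at an unadjusted p under 0.05 up to 4 members of each list described, and Gcsam and Cd79a; another gene of the rule is not reported here. Others were chosen after their values were seen. The members, the gene lists and the rule were chosen with earlier results of these data known. Lists were described by rule where their median was among the 6 highest or lowest or where they mark another tissue. Chosen after their values were seen were the unfolded protein response, glycolysis, follicular helper and checkpoint, splicing factor and plasma cell lists. So were both interferon lists and the cytotoxic, regulatory T cell and p53 target lists. The macrophage and red pulp list was given outside the rule. Promoters came from RefSeq tables (GRCm38.p6), and figures from matplotlib 3.10.9 with Python 3.11.15 and pandas 2.3.3. Alternatives were 3 renormalizations, 2 filters on dim genes, other uses of probe sets, other sets of arrays, a variance trend, array weights, the replicate number as a block, a sex covariate, a fold threshold and 1 array left out at a time.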

Additional observations from a re-analysis of the deposited data

Results flagged for a closer look

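Of 76 genes and 13 lists tested for a tumour array far from the other 3, 12 stood apart (13.5%); chance flags about 1 in 20 groups. Genes picked because 1 array stood apart were not counted. Tumour 1 accounted for 6, tumour 3 for 3, tumour 4 for 3 and tumour 2 for 0.

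Tumour 1 was the lowest of the tumours for Mki67 at 9.55, Cdk1 at 6.588, H1f5 at 7.34 and Dnah8 at 6.372, and for the level of the mitosis list at -0.1374. It was the highest for Lef1 at 9.938. Tumour 3 was the lowest for Npff at 5.277, H2-DMb1, a subunit of the class II peptide exchange factor, at 6.778, and the class II presentation list at -0.6604. Tumour 4 was the highest for Gcsam at 10.41, Mybl1 at 10.6 and the germinal centre B cell list at 1.887. The mitosis, germinal centre and class II members share cells and arrays, so these are not separate observations.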

How the results depend on the processing

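Between tumour and pre-tumour spleens, no gene was called higher under any other setting, with 10 (fold threshold of 0.5) to 1273 (replicate block) genes higher at an unadjusted p under 0.05. Against 0 genes called lower, limma called 1 with only the compared groups (H2-Ea), 2 with only Sca1-Cre and wild-type arrays (H2-Ea and Msh5), 1 with array weights (9030025P20Rik), 1 with the replicate block (H2-Ea, -6.45, adjusted p = 0.00359) and 1 without both arrays with pancreatic transcripts, Mb1-Cre tumour 2 and wild type 2 (H2-Ea, adjusted p = 0.0297). Leaving out 1 array gave 0 to 1. Median centring turned the split at an unadjusted p under 0.05 to 701 higher and 466 lower, against 536 and 649.

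For pre-tumour minus wild type (1 gene called), quantile normalization, cyclic loess, the sex covariate, the fold threshold and leaving out both pancreatic arrays gave 0, median centring 2, only the compared groups, only Sca1-Cre and wild-type arrays and the replicate block 3 each, and array weights 53. Leaving out 1 array gave 0 to 1. For tumour minus wild type (9), cyclic loess gave 15, the mean of probe sets 14, only the compared groups 2, a variance trend 4, array weights 86, and the replicate block, the fold threshold and leaving out both pancreatic arrays 0. Leaving out 1 array gave 2 to 12, with 2 without tumour 4 or wild type 2.

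The titles do not say that replicate numbers pair the animals. Same-numbered tumour and pre-tumour arrays had correlations of their deviations of 0.243, 0.0118 and 0.0749. The first was the highest of all pairs, while tumours 2 and 3 correlated best with another number. With so few arrays these correlations cannot decide whether animals were paired. Of 2588 values of 124 named genes over these settings 0 turned their sign, and 7 of 3 genes (H2-Ea, Msh5 and 9030025P20Rik) passed the threshold. The filters, the variance trend and sets of arrays that keep all 7 Sca1-Cre arrays leave the difference of a gene unchanged. No sign could turn under those settings. The exocrine pancreas median was -0.689 and -0.673 under the filters on dim genes, which left 10 and 7 of its 15 genes. With 4 and 3 arrays, genes that vary among the tumours are poorly resolved, and values below the 40th percentile give no exact difference. The causes of these shifts were not tested.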

Other observations

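Of 13 measured genes of regulatory T cells 7 stood higher in tumours by a median of 0.053, and of 16 p53 targets 13 by a median of 0.20, with Perp, a p53-induced membrane protein, highest in tumour 3 at 6.61, against 5.28, 5.28 and 5.37 in the other tumours and 5.03, 5.25 and 5.22 in pre-tumour spleens. Of 18 cytotoxic genes 12 stood lower, with a list median of -0.10, or 0.0517 without tumour 4. The regulatory T cell median was -0.0161 without tumour 3. Of 20 genes of the interferon gamma response 15 stood higher by a median of 0.10, and without tumour 3 the median was -0.0296. These lists were described after their values were seen. Nrp1, a semaphorin co-receptor, stood at 7.26, 7.33, 8.01 and 7.80 in tumours, against 7.51, 6.94 and 6.92 in pre-tumour and 6.93, 6.72 and 6.77 in wild-type spleens. Among 483 microRNA genes, 38 were lower and 7 higher in tumours at an unadjusted p under 0.05 (9.32% in all), against 5.34% of all genes, and none was called by limma.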
